A study of Danio rerio with 14 samples.

Results

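The genes described here are 9 genes of the enveloping layer, the outer epithelium of the early zebrafish embryo: the keratins krt4, krt5, krt8 and krt18a.1, the annexins anxa1a and anxa1b, the tight junction genes cldne and oclna, and the lipid transporter gene abca12. Every probe set annotated to a single gene symbol among these names was taken, which gave 9 probe sets, 1 for each gene, of 15502 on the array (9 of 8793 named genes). All 9 passed the filter on low signals, as did 9240 of the 15502, and each of the 9 had a signal of at least 200 on all 14 arrays.

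Embryos of the strain TL were kept in 100 mM (0.6%) ethanol, starting at 2 hours post fertilization (hpf), or were left untreated as controls. Total RNA of the whole body was taken at 8 hpf, after 6 hours of exposure, from pools of about 20 embryos, giving 7 ethanol pools and 7 control pools. Ethanol and control pools were drawn in pairs from shared embryo batches, and the 7 batches bear the numbers 1 to 6 and 8. The pools were measured on the Affymetrix Zebrafish Genome Array and are given as MAS5 signals, linear intensities that are summarised over the probes of a set.

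At this stage the enveloping layer is a flat sheet that covers the blastoderm, is tethered at its margin to the yolk syncytial layer and spreads with it over the yolk during epiboly, and it later forms the periderm, the temporary outer skin. Its cells are sealed to each other by tight junctions and desmosomes and are filled with keratin filaments, each built from a type I and a type II keratin. Annexins are proteins that bind membrane phospholipids when calcium is present, and keratin and annexin transcripts are in common use as markers of this layer. The arrays measured RNA of whole embryos, so whether a transcript came from the enveloping layer was not tested, and fewer cells of the layer and less RNA per cell cannot be told apart.

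The median signal of an array lay between 219 and 296 in ethanol pools and between 214 and 282 in control pools. Control probe sets at the 3' and 5' ends of a transcript give a ratio that rises when RNA or labelled product is shortened. With ethanol this ratio was 1.82 above the control in log2 for GAPDH, with 6 of 7 pairs higher (sign-flip permutation test, two-sided, exact p = 0.0625), and 1.57 above it for acta1, with 5 of 7 pairs higher (exact p = 0.156). In log2 the GAPDH ratio ran from 0.24 to 2.57 in ethanol pools and from -3.98 to 2.01 in control pools. It was below 0 in the control pools of batches 8 (-3.98), 1 (-1.94), 4 (-1.64) and 3 (-0.52). The methods report a high RNA integrity number for every sample. The part of this ratio in the changes below was not tested.

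Ethanol did not move the 9 genes in a common direction: 5 changes lay above 0 and 4 below. A limma fit over all 9240 probe sets, with embryo batch as a block, called a change at an adjusted p (Benjamini-Hochberg) of up to 0.10. By that rule oclna was higher in ethanol pools, anxa1b, anxa1a and abca12 were lower, and the 4 keratins and cldne were not called. That is 1 of 9 higher, beside 2.36% of all probe sets tested, and 3 of 9 lower, beside 2.00%. The median change of the 9 genes was 0.10 in log2 (ethanol minus control), against -0.00 for all probe sets tested, and their median standard error (SE) was 0.08, against 0.14. For none of the 9 genes did the ethanol and control pools separate without overlap, which they did for 0.357% of all probe sets tested. The keratin krt18a.1 was higher in all 7 pairs, as were 3.15% of all probe sets, and no member was lower in all 7, as were 2.97%. With no replicate block, a random block, no mean-variance trend or no moderation, limma called 0 of the 9, where it called 0.303%, 1.92%, 0.465% and 0.487% of all probe sets. At an unadjusted p of up to 0.05, 1 to 4 of the 9 were then higher and 3 lower, beside 4.35% to 7.29% and 3.53% to 6.54% of all probe sets.

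**Figure D1:**
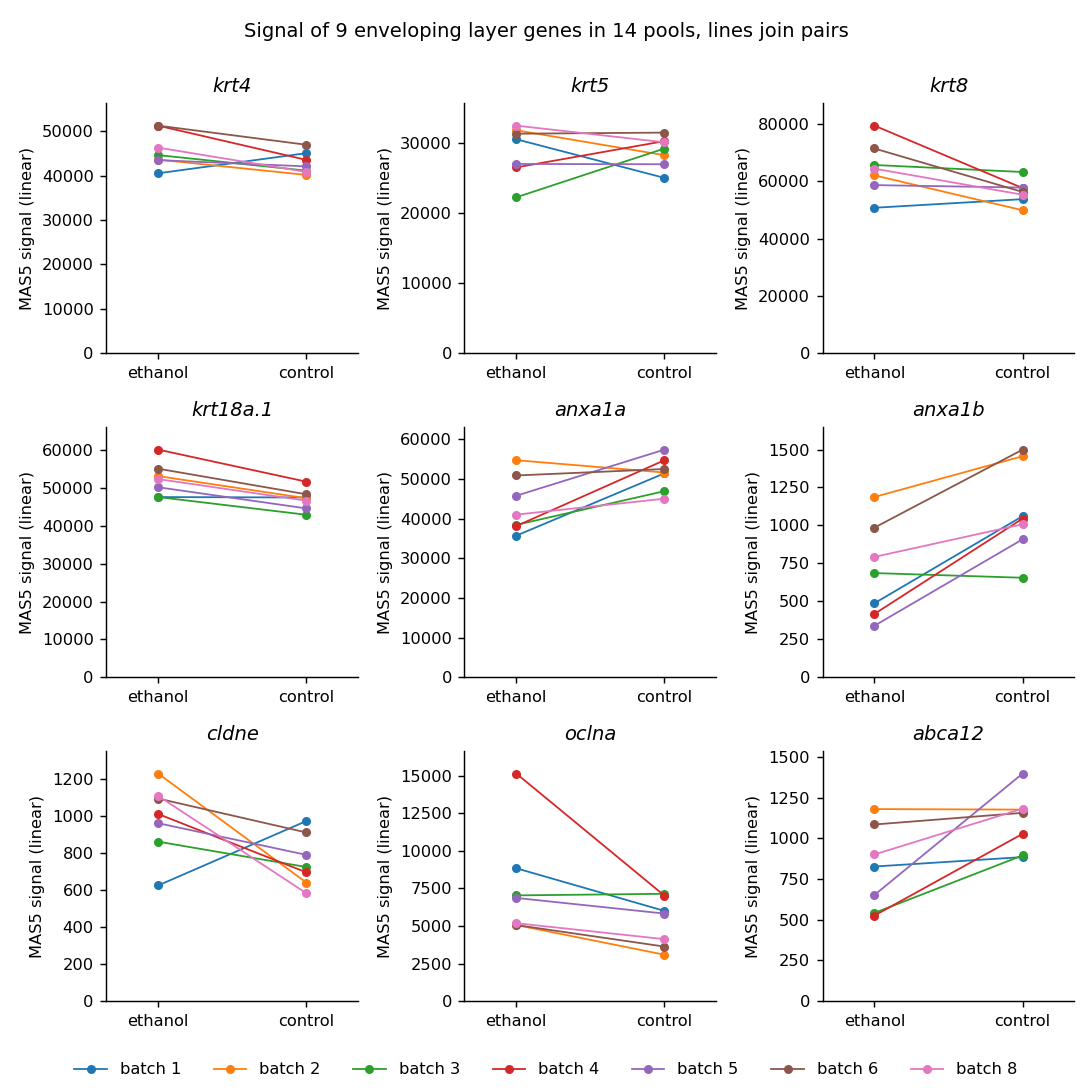
MAS5 signal (linear, axes from 0) of the 9 genes in each of 14 pools, with the ethanol pools at left and the control pools at right in each panel and a line joining the pools of one embryo batch. The lines of anxa1b and abca12 run up towards the control side in most batches, those of oclna run down, and no panel has ethanol and control pools that do not overlap.

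Among the keratins, the type II gene krt8 and the type I gene krt18a.1 had higher mean signals with ethanol, by 0.19 and 0.15 in log2, without passing the threshold. The signal of krt8 was 50738 at its lowest, 64375 at the median and 79365 at its highest in ethanol pools, against 49870, 56247 and 63204 in control pools. The signal of krt18a.1 was 47640, 52394 and 60189 in ethanol pools, against 42959, 47332 and 51708 in control pools. In both genes 4 of the 7 ethanol pools lay above the highest control pool, and the pool of batch 4 was the highest of all. The change was 0.19 for krt8 (SE 0.07, 95% interval 0.04 to 0.34, adjusted p = 0.187), higher in 6 of 7 pairs, and 0.15 for krt18a.1 (SE 0.06, 95% interval 0.03 to 0.27, adjusted p = 0.208). The pairs of krt18a.1 differed little among themselves, with changes of 0.15 to 0.22 in 6 of them and 0.00 in batch 1. Batch 1 was also the 1 pair in which krt8 and krt4 were lower with ethanol. Without batch 1 both passed the threshold, krt8 at 0.24 (adjusted p = 0.0621) and krt18a.1 at 0.18 (adjusted p = 0.0991). With any other pair left out both missed it (adjusted p up to 0.435 for krt8 and 0.393 for krt18a.1). Of 11 other settings of the fit, krt8 passed in 2 and krt18a.1 in 1.

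The type II keratins krt4 and krt5 had signals that differed by less than their spread. The signal of krt4 was 40500, 44588 and 51220 (lowest, median and highest) in ethanol pools, against 40140, 42054 and 46920 in control pools. Only the ethanol pools of batches 4 and 6 lay above the highest control pool, and the change was 0.10 (SE 0.06, 95% interval -0.03 to 0.23, adjusted p = 0.502), with 6 of 7 pairs higher. For krt5, a keratin of basal skin cells in mammals, the signal was 22302, 30600 and 32544 in ethanol pools, against 25073, 29276 and 31549 in control pools. Its pairs were split, 4 higher and 3 lower, between -0.39 in batch 3 and 0.29 in batch 1, and the change was -0.00 (SE 0.08, 95% interval -0.16 to 0.16, adjusted p = 0.989). The interval leaves room for a change of krt5 of up to 0.16 either way. In the zebrafish annotation krt5, krt8 and krt18a.1 are neighbours with 0 protein-coding genes between them.

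The annexin anxa1b was lower with ethanol and had the largest fall of the 9 genes. Its signal was 339.5, 686.3 and 1187 (lowest, median and highest) in ethanol pools, against 655.5, 1045 and 1499 in control pools. The ethanol pools of batches 1, 4 and 5 lay below every control pool, and the other 4 lay within the control range. The means were 700 ± 312 in ethanol pools and 1091 ± 298 in control pools (SD, n = 7 each), and the change was -0.72 (SE 0.16, 95% interval -1.06 to -0.38, adjusted p = 0.0248), a ratio of 0.607. It was lower in 6 of 7 pairs, by 1.42, 1.32 and 1.12 in batches 5, 4 and 1, and in batch 3 the change was 0.07. The call held with any 1 pair left out, at changes between -0.85 and -0.60. It was missed with batch as a random block (adjusted p = 0.102) and with no block (adjusted p = 0.469), at the same change. The call was also missed without trend (adjusted p = 0.187) and without moderation (adjusted p = 0.264).

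Of the annexin A1 copies, anxa1c and anxa1d are not members and are given below with the other annexins. The other annexin A1 copy among the members, anxa1a, lies on the same chromosome as anxa1b, with 778 protein-coding genes between, and was lower too. Its signal was 35694, 40992 and 54703 in ethanol pools, against 45005, 51598 and 57378 in control pools. The ethanol pools of batches 1, 3, 4 and 8 lay below every control pool, and that of batch 2 lay above its own control pool. The change was -0.25 (SE 0.08, 95% interval -0.41 to -0.09, adjusted p = 0.0901), a ratio of 0.840, lower in 6 of 7 pairs. This call was near the threshold: it was missed without batch 1, 3, 4, 5 or 8, with anxa1a at -0.21, -0.24, -0.21, -0.24 and -0.27 and an adjusted p of 0.153, 0.168, 0.269, 0.193 and 0.134. It was also missed with array weights (adjusted p = 0.110), a signal minimum of 100 (0.175), no filter (0.238), median centring (0.145) and a random block (0.152). The anxa1a call was missed as well with no block (0.504), no trend (0.326) and no moderation (0.322).

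The tight junction gene oclna, which encodes occludin, a membrane protein of the seal between epithelial cells, was the only member that rose past the threshold. Its signal was 5063, 6864 and 15129 (lowest, median and highest) in ethanol pools, against 3091, 5825 and 7139 in control pools. The ethanol pools of batches 1 and 4 lay above every control pool, and the others lay within the control range. In batch 4 the ethanol pool had 15129 and its control pool 7016, the largest difference of the 7 pairs (1.11), whereas in batch 3 the pools had 7033 and 7139 (-0.02). The change was 0.49 (SE 0.10, 95% interval 0.27 to 0.70, adjusted p = 0.0169), a ratio of 1.40, higher in 6 of 7 pairs. With any 1 pair left out it stayed between 0.38 and 0.57 and was called. It was missed under median centring of the arrays (0.46, adjusted p = 0.103), with batch as a random block (adjusted p = 0.211) and with no block (adjusted p = 0.652). The oclna call was also missed without trend (adjusted p = 0.191) and without moderation (adjusted p = 0.242).

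The other tight junction gene, cldne, encodes a claudin, one of the proteins that form the strands of the junction. Its signal was 624, 1009 and 1227 in ethanol pools, against 582, 724 and 971 in control pools. In ethanol pools of 4 batches the signal lay above every control pool, but in batch 1 the order was turned, with 624 in the ethanol pool and 971 in its control pool (-0.64). The change was 0.37 (SE 0.16, 95% interval 0.04 to 0.70, adjusted p = 0.27), and without batch 1 cldne was at 0.53 and passed the threshold (adjusted p = 0.0430). With any other pair left out cldne missed it (adjusted p up to 0.524), and it passed in 0 of 11 other settings of the fit.

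The transporter gene abca12 was lower with ethanol. In mammals its product carries lipids into the lamellar granules of the skin barrier, and its loss in humans causes harlequin ichthyosis. Its signal was 526, 827 and 1179 in ethanol pools, against 885, 1156 and 1397 in control pools. The ethanol pools of batches 1, 3, 4 and 5 lay below every control pool, and the pools of batch 2 were alike, with 1179 in the ethanol pool and 1176 in its control pool. The change was -0.48 (SE 0.14, 95% interval -0.78 to -0.18, adjusted p = 0.0848), a ratio of 0.716, and lower in 6 of 7 pairs, most in batches 5 (-1.10), 4 (-0.97) and 3 (-0.72). Without batch 3, 4, 5 or 8 abca12 was at -0.44, -0.40, -0.38 and -0.50 and missed the threshold (adjusted p = 0.181, 0.228, 0.245 and 0.153). It was also missed with a signal minimum of 100 (adjusted p = 0.108), quantile normalization (0.110), median centring (0.196) and a random block (0.152). The abca12 call was missed as well with no block (0.511), no trend (0.257) and no moderation (0.327).

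**Figure D2:**
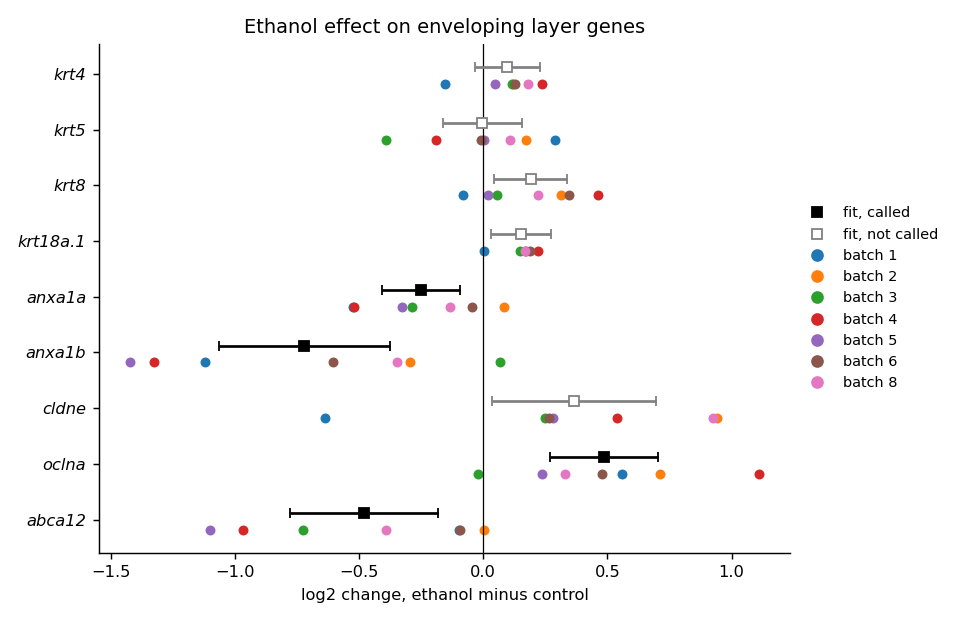
Change in log2 signal (ethanol minus control) of the 9 genes, with squares for the limma estimate, bars for its 95% interval and dots for the 7 embryo batches. The intervals of the 4 called genes (filled squares) do not reach 0, nor do those of krt8, krt18a.1 and cldne, which missed the threshold after adjustment over 9240 probe sets.

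Whether related members changed unequally was asked of 4 pairs of genes, with a two-sided exact permutation test that flips signs over the 7 batches, whose smallest possible p is 0.0156. The change of anxa1b minus that of anxa1a was -0.47 ± 0.46 (SD, n = 7), below 0 in 6 of 7 batches (exact p = 0.0469, adjusted over the 4 tests 0.188). So the larger fall of anxa1b did not hold after adjustment. The difference was 0.04 ± 0.15 for krt8 minus krt18a.1 (exact p = 0.531, adjusted 0.688), the type II and type I partners. It was -0.10 ± 0.31 for krt5 minus krt4 (exact p = 0.344, adjusted 0.688), and 0.12 ± 0.60 for oclna minus cldne (exact p = 0.688, adjusted 0.688), where the sign turned to -0.06 without batch 1. A p above the threshold does not show that the members of these 3 pairs responded alike.

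The batches of embryos differed in oclna and anxa1b beyond the spread within pairs (limma moderated F test over embryo batch, adjusted p = 0.000344 and 0.0339). These are 2 of the 9 genes, beside 22.3% of all probe sets tested. The geometric mean of the ethanol and control pools of a batch ran for oclna between 3956 in batch 2 and 10303 in batch 4, and for anxa1b between 555 in batch 5 and 1315 in batch 2. Batches 2 and 6 had the highest anxa1b (1315 and 1216, with 894 in batch 8 next) and the lowest oclna (3956 and 4288), with batch 8 (4624) close to them in oclna. The abca12 means of these batches (1178 and 1120) were the highest by little, with 1032 in batch 8, and abca12 was not called for a batch effect (adjusted p = 0.201). The ethanol change of abca12 was near 0 in batches 2, 6 and 1 (0.00, -0.09 and -0.10), and that of anxa1a was nearest 0 in batches 6, 2 and 8 (-0.05, 0.08 and -0.13).

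The 4 keratins, anxa1a and cldne were not called for a batch effect, with an adjusted p between 0.264 and 0.928. Batch 4 gave the largest change of 4 of the 9 genes (krt4, krt8, krt18a.1 and oclna), and the median size of the 9 changes in that batch was 0.52, against 0.31 over all probe sets tested. In the other batches this median lay between 0.15 and 0.29. Within a batch the members still moved apart: in batch 4 the changes ran from -1.32 in anxa1b to 1.11 in oclna.

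**Figure D3:**
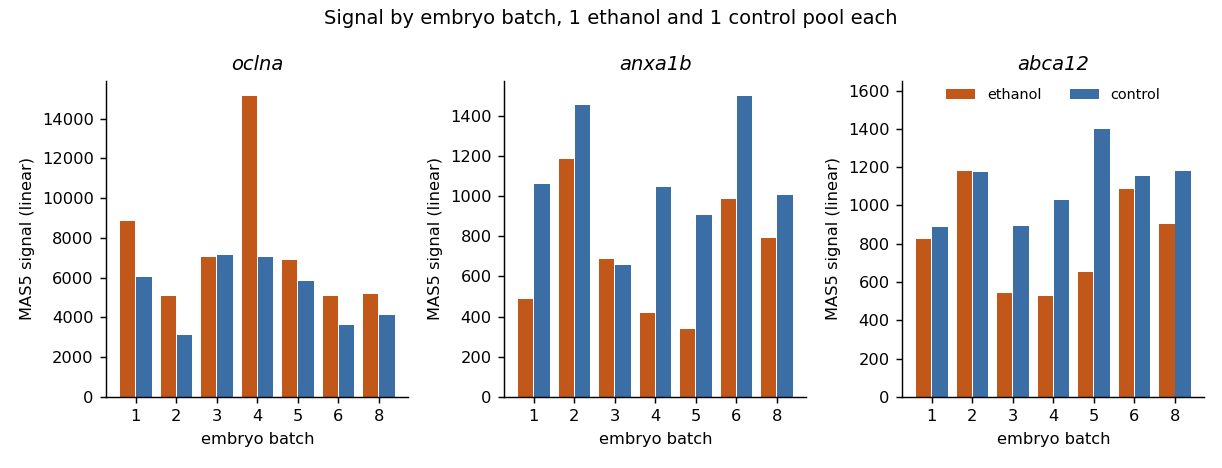
MAS5 signal (linear, axes from 0) of oclna, anxa1b and abca12 in each embryo batch, 1 ethanol pool (left bar) and 1 control pool (right bar) per batch. Batches 2 and 6 have the highest anxa1b means (1315 and 1216), and the batch 4 ethanol pool has the highest oclna signal, 15129.

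Genes with related roles were followed in 6 lists, with each gene represented by its tested probe set of highest mean signal. Of 18 other keratin genes listed, 5 were tested. Of these, krt97 rose and 4 were not called, and the median change was -0.02. At an unadjusted p of up to 0.05 by limma, 1 was higher and 2 lower, beside 7.51% and 7.45% of all probe sets tested. The signal of krt97 was 61297, 63172 and 74214 (lowest, median and highest) in ethanol pools, against 44802, 50666 and 60755 in control pools. All 7 ethanol pools lay above all control pools, and the change was 0.39 (SE 0.06, adjusted p = 0.0022), missed only without the trend (adjusted p = 0.112) among the alternatives run. The other keratins with large changes were krt91 (-0.96, SE 0.33, adjusted p = 0.150), krt93 (0.66, SE 0.69) and krt17 (-0.28, SE 0.12, adjusted p = 0.272), whose ethanol and control pools overlapped. The krt93 signal reached 200 on only 5 of the 14 arrays.

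Of 29 other annexins and S100 partners, small calcium-binding proteins some of which bind annexins, 19 were tested. Of these, s100v1 fell, none rose and 18 were not called. Their median change was -0.24 and 13 of the 19 lay below 0, as did 50.2% of all probe sets tested. At an unadjusted p of up to 0.05 by limma, 2 were higher and 5 lower, beside 7.51% and 7.45% of all probe sets. Besides s100v1 those lower were anxa2b (-0.40), anxa4 (-0.28), icn (-0.27) and anxa1c (-0.24, SE 0.11, adjusted p = 0.293). Those higher were anxa5b (0.33) and s100a1 (0.30). Other probe sets gave 0.21 for anxa4, -0.22 for icn, and 0.40 and -0.32 for anxa5b. The signal of s100v1 was 227, 800 and 1960 in ethanol pools, against 1016, 1329 and 2114 in control pools. In 4 batches its ethanol pool lay below every control pool, and the change was -0.69 (SE 0.19, adjusted p = 0.0582). It missed the threshold without batch 3 (-0.65, adjusted p = 0.130), 4 (-0.44, adjusted p = 0.111) or 5 (-0.67, adjusted p = 0.134), and with a random block (adjusted p = 0.260). The s100v1 call was also missed under median centring (0.146) and with no block (0.672), no trend (0.282) or no moderation (0.375). The larger estimates of anxa13l (0.89), anxa2a (-0.80) and anxa1d (-0.62) had SEs of 0.50 to 0.58 and came from signals near or below 200 on many arrays.

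Of 61 other tight junction genes, 23 were tested and none was called by limma. At an unadjusted p of up to 0.05, 3 were higher and 0 lower, beside 7.51% and 7.45% of all probe sets tested. The median change was 0.01, and the largest estimates were those of the claudin genes cldnj (0.95, SE 0.69), cldn3d (-0.56, SE 0.35) and cldn5a (0.51, SE 0.31). Their signals were low, and reached 200 on 3, 4 and 9 of the 14 arrays. The 27 desmosome, plakin and adherens junction genes gave 18 tested, 1 higher and 2 lower, beside 2.36% and 2.00% of all probe sets tested. Their median was -0.01. At an unadjusted p of up to 0.05 by limma, 2 were higher and 3 lower, beside 7.51% and 7.45%. The 2 genes called lower encode plakins, proteins that link intermediate filaments such as keratins to junctions. Of the other plakin genes tested, ppl (-0.03), dspa (0.05), evpla (0.07), macf1a (0.40) and plecb (-1.19) were not called.

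For evplb, an envoplakin gene, the signal was 401, 1276 and 1986 in ethanol pools, against 1182, 1715 and 2456 in control pools. The ethanol pools of 3 batches lay below every control pool, and the change was -0.69 (SE 0.18, adjusted p = 0.0504). It missed the threshold without batch 1 (-0.60, adjusted p = 0.103) or 4 (-0.48, adjusted p = 0.125), and with a random block (adjusted p = 0.168). The evplb call was also missed under median centring (0.126) and with no block (0.551), no trend (0.274) or no moderation (0.368). For the plectin gene pleca, the signal was 516, 697 and 836 in ethanol pools, against 808, 887 and 1278 in control pools. It was lower in all 7 pairs and below every control pool in 6 batches, with a change of -0.46 (SE 0.13, adjusted p = 0.0793). A different pleca probe set gave -0.24 (adjusted p = 0.482), and the call was missed without batch 3, 4, 5, 6 or 8 (adjusted p up to 0.205). The pleca call was also missed with a signal minimum of 100 (adjusted p = 0.111), no filter (0.112) and median centring (0.206). The same held with no block (0.339), no trend (0.213) and no moderation (0.255). The gene that rose was epcam, which encodes an epithelial adhesion molecule, at 0.31 (SE 0.09, adjusted p = 0.0825). It was called without batch 2 or 3 and missed without each of the others (adjusted p up to 0.227). The epcam call was also missed with a random block (0.404), no block (0.771), no trend (0.319), no moderation (0.357) and median centring (0.40). The largest changes among those not called were plecb (-1.19, SE 0.69), macf1a (0.40, SE 0.32) and the E-cadherin gene cdh1 (0.31, SE 0.11, adjusted p = 0.193). The plecb signal reached 200 on only 5 of the 14 arrays.

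None of the 19 tested regulators of the enveloping layer and periderm, of 30 listed, was called by limma. At an unadjusted p of up to 0.05, 2 were higher and 2 lower, beside 7.51% and 7.45% of all probe sets tested. Their median change was -0.01. The largest estimates were those of the Krüppel-like factor gene klf3, at -0.33 and lower in 7 of 7 pairs (SE 0.12, adjusted p = 0.183), and of the protease inhibitor genes spint1a (0.31, SE 0.13) and spint1b (0.30, SE 0.23). Of 38 genes listed as ABCA transporters and enzymes of barrier lipids, 14 were tested and none was called. At an unadjusted p of up to 0.05, 1 was higher and 1 lower, beside the same shares of all probe sets. Their median was -0.04, and the largest estimates were those of sptlc2b (-0.80, SE 0.35), a gene for sphingolipid synthesis, and of the fatty acid elongase genes elovl4b (0.78, SE 0.31) and elovl1b (0.62, SE 0.48). The signals of sptlc2b, elovl4b and elovl1b reached 200 on 10, 7 and 6 of the 14 arrays.

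**Figure D4:**
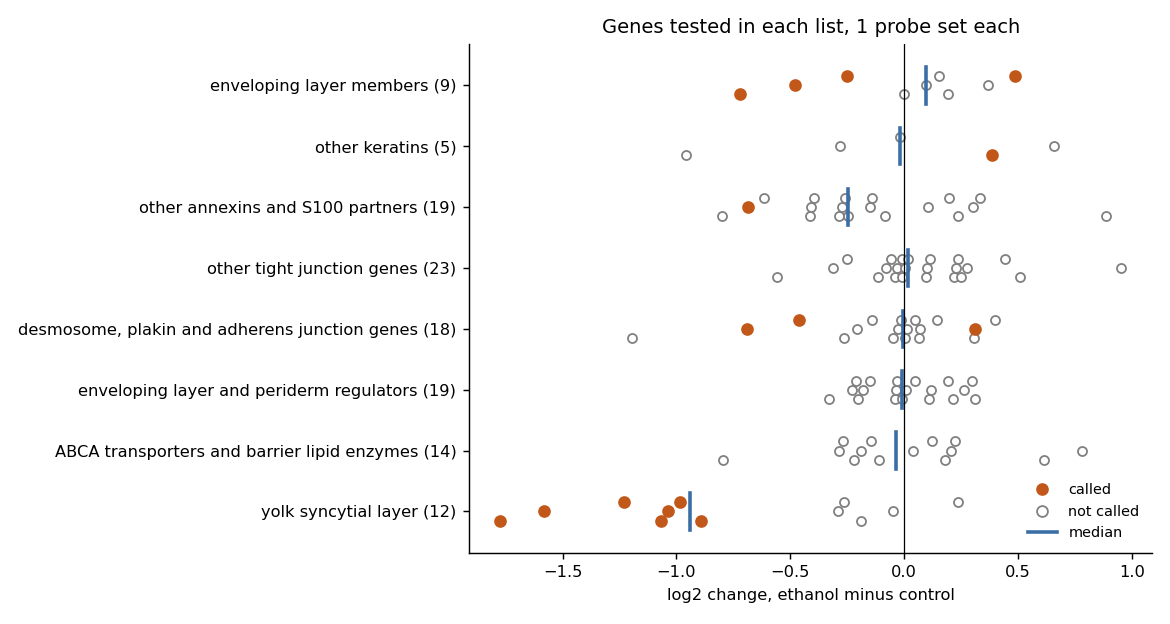
Change in log2 signal (ethanol minus control) of every tested gene of each list, 1 probe set per gene, with filled points for genes past an adjusted p of 0.10 and a bar at the list's median. The medians of 5 of the 6 lists of related genes lie between -0.04 and 0.01, that of other annexins and S100 partners at -0.24 and that of yolk syncytial layer markers at -0.94.

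Some markers of other cell types were also called with ethanol, most of them in the yolk syncytial layer list. Of 14 yolk syncytial layer markers on the array, 12 were tested, with a median of -0.94. Of these, 7 were lower and 0 higher, beside 2.00% and 2.36% of all probe sets tested. The 7 were bhmt, gamt, rbp4l and the apolipoprotein genes apoa2, apobb.1, apoba and apoa4b.1, of which apoba was missed without batch 5 (adjusted p = 0.108) and apoa4b.1 when any batch other than 1 was left out (adjusted p up to 0.246). With a random block apoa2, rbp4l, apoba and apoa4b.1 were missed (adjusted p = 0.117, 0.161, 0.190 and 0.296), and without moderation all 7 were (adjusted p between 0.114 and 0.432). With no block all 7 were missed (adjusted p between 0.314 and 0.688), and without trend all but apoa2 (adjusted p between 0.1002 and 0.325). The 5 not called in the main fit were slc26a1 (-0.29), gata5 (-0.26), gata6 (-0.19), hnf4a (-0.05) and hhex (0.24), with an adjusted p between 0.213 and 0.880. At an unadjusted p of up to 0.05 by limma, 9 of the 12 were lower and 0 higher, beside 7.45% and 7.51% of all probe sets tested. The summed signal of all probe sets of the 14 was 16025, 28870 and 48048 (lowest, median and highest) in ethanol pools, against 38956, 44381 and 66058 in control pools, and the mean change of the tested markers was below 0 in 7 of 7 pairs. Much of the summed signal came from the bhmt probe sets, with mean signals of 20734 and 8611 in control pools. Among epiblast and neuroectoderm markers 2 of 9 were higher, beside 2.36% of all probe sets tested. These were pou5f3 (0.35, adjusted p = 0.0078) and sox19a (0.54, adjusted p = 0.0226), both missed under median centring (adjusted p = 0.122 and 0.120). Both were also missed with no block (adjusted p = 0.764 and 0.252), no trend (0.135 and 0.238) and no moderation (0.110 and 0.309). With a random block pou5f3 was missed (adjusted p = 0.372). The median of the 9 was -0.01, with 5 below 0 and otx2b at -0.23 (unadjusted p = 0.0295, adjusted p = 0.263). The summed signal of this list, to which pou5f3 and sox19a contribute much, was 71360 to 108409 in ethanol pools and 70931 to 85042 in control pools. Of 4 germ cell markers tested dnd1 was higher (0.93, adjusted p = 0.0862), with 0.01 on its other probe set. The dnd1 call was missed without batch 2, 3, 5 or 8 (adjusted p up to 0.210). It was also missed with a signal minimum of 100 (adjusted p = 0.114), no filter (0.108), median centring (0.152) and a random block (0.204). The same held with no block (0.573), no trend (0.311) and no moderation (0.407). The summed signal of the germ cell markers was 2190 to 4302 in ethanol pools and 2034 to 3454 in control pools. Of the 7 mesoderm and 5 endoderm markers none was called. At an unadjusted p of up to 0.05, 2 were higher and 1 lower, beside 7.51% and 7.45% of all probe sets tested. No marker in these lists was below 200 on every array. The part of these other cell types in the changes of the 9 genes was not tested.

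The genes outside the 9 whose log2 signals followed each member most closely over the 14 arrays are given as a description, since the arrays share embryo batches and scaling. For oclna they were ftr83 (Pearson's r = 0.96), the chemokine receptor gene cxcr4b (0.94) and the TGF-beta family ligand gene gdf3 (0.93). For abca12 they were the vesicle tethering gene uso1 (0.94), gatm, an enzyme of creatine synthesis (0.93), and the transcription factor gene foxa1 (0.93). For anxa1b they were rab2a (0.91), mvp (0.91) and the mitochondrial creatine kinase gene ckmt1 (0.90). For anxa1a they were her15.2, mrpl45 and ppp3cca (0.85, 0.85 and 0.84). The closest genes to the keratins and to cldne had values between 0.78 and 0.87. They were zp3.1, ndufa5 and alkbh6 for krt4 (0.79 each), rtraf, soul4 and sh3bgrl for krt5 (0.87, 0.81 and 0.80), and tmem256, ivd and tdrd15 for krt8 (0.80, 0.79 and 0.78). For krt18a.1 they were cdk2ap2, timm13 and homer3b (0.82, 0.82 and 0.78), and for cldne si:ch73-103b11.2, sel1l and pax5 (0.81, 0.81 and 0.80).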

How the data were processed

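Per the methods and labels, 14 samples of total RNA (7 ethanol, 7 control) from independent experiments were labelled with the 3' IVT Express kit, and the arrays were not split over several runs. The authors made the deposited values with MAS5 and scaled each array to a target of 1000: they are intensity values on a linear scale, with 1 signal per probe set and array. The table used here holds no detection calls and no saturation flags. Precision is limited by the number of arrays.

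Of 15617 probe sets, 115 controls were left out. Names came from the platform annotation, updated through gene identifiers: 10802 probe sets had 1 symbol, 135 several and 4680 none. A RefSeq gene table of another build gave only which genes are neighbours. Probe sequences were not used here, so cross-hybridization between similar keratins was not checked.

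A probe set was tested where 3 or more of the 7 ethanol arrays, or of the 7 control arrays, reached a signal of 200. From the deposited intensities log2 values were computed and fitted in limma 3.58.1 (R 4.3.3, eBayes with trend), with fixed terms for treatment and for embryo batch. The batch terms together had a moderated F test. The authors filtered on detection calls and took batch as random in an analysis of variance. With complete pairs, a random or a fixed batch gives the same estimate of the treatment change. The random block used here as an alternative took a single correlation within batches, shared by all probe sets. It does not repeat the authors' model. Replicate numbers in the titles pair the pools: deviations from the treatment mean correlated within every pair (0.11 to 0.38), and 6 of 7 pools correlated best with their own number. The exception was batch 1, at 0.11 within the pair and 0.17 with a pool of another number. Scripts were tested on simulated data. Alternatives were a signal minimum of 100, 400 or none, quantile normalization, median centring, an offset of 100, no or a random block (statmod 1.5.0), no trend, no moderation, array weights and each pair left out. Dixon's criterion on log2 signals (0.568 for 7 arrays) searched for arrays far from the others. Plots were made in Python 3.11.15 (matplotlib 3.10.9).

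The 9 genes and the lists were chosen with earlier results of these data known. Named were every member, of each list the genes past the threshold and up to 3 more with the largest changes, and per member the 3 genes most correlated with it. Of the lists of other cell types, the genes past the threshold are named here, and for the yolk syncytial layer also those not called. To these was added otx2b, the 1 epiblast and neuroectoderm marker lower at an unadjusted p of up to 0.05. Also added were the annexins and S100 partners past that unadjusted p and the plakin genes ppl, dspa and evpla.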

Additional observations from a re-analysis of the deposited data

Results flagged for a closer look

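On log2 signals none of the 9 genes had an array far from the others of its group. On linear signals 1 did: oclna, whose batch 4 ethanol pool had a gap to the next of 0.625 of the range, above the critical value (0.491 on log2 signals). On log2 signals, in 3 of 48 groups searched, over 24 probe sets, 1 array stood apart from the other 6 of its treatment by Dixon's criterion, which chance alone does in about 1 of 20 groups. All 3 concern markers of other cell types in ethanol pools. The yolk syncytial layer marker apoba had its lowest signal, 4.82, in the ethanol pool of batch 4, where the next lowest ethanol pool had 130. The epiblast marker sox19a had its highest signal, 23623, in the same pool, against 14185 in the next. The germ cell marker dnd1 had its highest signal, 855, in the ethanol pool of batch 5, against 581 in the next. The ethanol pool of batch 4 also held the highest signals of krt8, krt18a.1 and oclna.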

How the results depend on the processing

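The counts of calls depended on median centring of the arrays and on how embryo batch and variance were modelled. Over all probe sets, 218 were higher and 185 lower, against 47 and 56 under median centring, 25 and 3 with no replicate block, 104 and 73 with the block as a random effect, 29 and 14 without trend, and 29 and 16 without moderation. Leaving out 1 pair gave 122 to 242 higher and 87 to 241 lower. Of the 9 genes 1 was higher and 3 lower, beside 2.36% and 2.00% of all probe sets. With no replicate block, a random block, no trend or no moderation, 0 were called in either direction by limma, beside 0.303% to 1.92% of all probe sets. At an unadjusted p of up to 0.05, 1 to 4 were then higher and 3 lower, beside 4.35% to 7.29% and 3.53% to 6.54%. Median centring gave 0 higher and 1 lower, beside 0.509% and 0.606% of all probe sets. At that unadjusted p it gave 3 and 3, beside 4.98% and 6.31%. The minimum of 100 gave 1 higher and 1 lower, beside 189 and 151 of 12582 probe sets. Quantile normalization gave 3 higher and 2 lower (abca12 lost), beside 2.29% and 1.85% of all probe sets. Array weights gave 2 higher and 2 lower (anxa1a lost), beside 2.78% and 2.53%. Leaving out 1 pair gave 1 to 4 higher and 1 to 3 lower. The block was part of the design, and the other causes were not tested. For anxa1b the adjusted p was up to 0.0831 with a pair left out and up to 0.469 elsewhere, and for oclna up to 0.0527 and 0.652. Batch effects were called for 2 of the 9 genes, beside 22.3% of all probe sets, and for 5 under quantile normalization, beside 20.8%. With a pair left out they were called for 1 to 2, beside 16.9% to 24.9% (1516 to 2260 probe sets).

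The estimate of krt5 changed sign under quantile normalization (0.025), array weights (0.0016), without batch 3 (0.062) and without batch 4 (0.028), and ranged from -0.051 to 0.062 with a pair left out. That of macf1a changed sign without batch 3, ranging from -0.043 to 0.587, and oclna minus cldne without batch 1 (-0.059). With a pair left out the differences in change ranged from -0.61 to -0.37 for anxa1b minus anxa1a, 0.00 to 0.07 for krt8 minus krt18a.1, -0.19 to -0.03 for krt5 minus krt4 and -0.059 to 0.24 for oclna minus cldne. With 1 probe set per member there was nothing to average. No member probe set bears a name that marks shared probes, so leaving such probe sets out could change nothing. For single named genes, 854 values under alternatives kept their direction and side of the threshold, 125 lost the call and 15 gained it.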
